A study of Canis lupus familiaris with 18 samples.

Results

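The difference between gonadal and subcutaneous fat was measured in each of 9 dogs and set side by side between dogs fed ad libitum and dogs fed to hold their body weight. All 18 arrays of the series entered, 1 of each depot per dog, and the members were taken by the animal number in the labels. The dogs were intact female beagles, 4 years old. The 4 control dogs (dogs 1, 3, 4 and 9) were fed to hold their baseline weight and are described as lean. The 5 ad libitum dogs (dogs 2, 5, 6, 7 and 8) are described as obese after 24 weeks, and every dog received the same diet. Both depots were sampled after an overnight fast. The quantity reported is an interaction: the gonadal minus subcutaneous log2 level of a dog, averaged over the ad libitum dogs, minus the same average over the control dogs. A negative value says that the subcutaneous level stood relatively higher in ad libitum dogs, and a positive value that the gonadal level did. The comparison addresses whether the depots respond alike to overfeeding. Arrays of subcutaneous fat had been submitted once before and those of gonadal fat had not, so that a depot effect and a batch of arrays cannot be told apart. Within a depot the labels give no such split between the feeding groups. The samples are whole tissue, in which fewer cells of a type and less RNA per cell cannot be told apart.

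White fat stores triglyceride in adipocytes and releases fatty acids and hormones such as leptin and adiponectin. Around the adipocytes lie progenitor cells, a collagen matrix, vessels and macrophages. Subcutaneous fat lies under the skin and gonadal fat inside the abdomen around the reproductive organs, where it is covered by mesothelium, and the depots are known to differ in developmental genes, in lipid turnover and in how they expand with overfeeding.

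Adipocyte markers were detected in every array. ADIPOQ, which encodes adiponectin, averaged 14.45 ± 0.46 (SD, n = 4) and 14.85 ± 0.57 (SD, n = 5) in subcutaneous fat of control and ad libitum dogs, and 15.08 ± 0.51 and 15.11 ± 0.59 in gonadal fat. Of 14 ovary genes on the array 12 were below log2 4, the level used as a floor, in every array. A few arrays stood apart. The mean level of 27 skeletal muscle genes was 9.36 and 8.59 in the subcutaneous arrays of control dogs 3 and 4, 9.10 in the gonadal array of ad libitum dog 2 and 5.15 in the subcutaneous array of dog 7, against at most 4.25 in the others. The mean of 20 genes of ciliated and oviduct epithelium was 5.89 in the subcutaneous array of control dog 4 and 7.30 in the gonadal array of ad libitum dog 6, against 2.97 to 3.23 in the others. Results are therefore also given without dogs 2, 3, 4 and 6, which leaves 3 ad libitum dogs, dog 7 among them, and 2 control dogs. The actin 3′ minus 5′ control signal, which is larger where RNA is shorter, had a gonadal minus subcutaneous difference of -0.18 ± 1.00 (SD, n = 5) in ad libitum dogs and -1.84 ± 1.33 (SD, n = 4) in control dogs. The groups differed by 1.66, with p = 0.0794 in a two-sided exact permutation test, in which the smallest p that 9 dogs allow is 0.0159. This measure of RNA length was used as a covariate in an alternative fit, and its part in the results below was not tested otherwise.

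No gene had a depot difference that differed between the feeding groups past the threshold of 0.05 for the adjusted p. Of 21484 probe sets 0 passed in limma with Benjamini-Hochberg adjustment, and the smallest adjusted p was 0.312. At an unadjusted p under 0.05 stood 825 probe sets with a positive interaction (3.84%) and 1329 with a negative one (6.19%), 10% in all. Without the block for the dog these counts were 462 and 882, and 0 passed after adjustment. Negative values made up 61.7% of the probe sets at an unadjusted p under 0.05, and this split depended on the setting. With each array centred on its median, which put the median interaction of all probe sets at -0.0992 in place of -0.0196, 575 were positive and 1620 negative, 73.8% negative. With the actin covariate 827 were positive and 672 negative, 44.8% negative, and without dogs 2, 3, 4 and 6 602 and 464, 43.5% negative. Single dogs bore on the counts. Without ad libitum dog 2 the positive count was 524, without control dog 4 the negative count was 737, and without ad libitum dog 5 it was 2048. The values that follow are thus a description of the 9 dogs, and no named gene passed the test of the interaction.

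With 1 probe set for each of 8656 genes, 312 had a positive interaction at an unadjusted p under 0.05 (3.6%) and 576 a negative one (6.65%). Without dogs 2, 3, 4 and 6 these shares were 2.61% and 2.52%, and without the block 2.02% and 4.3%. With the actin covariate they were 3.59% and 3.08%, and with the other actin 5′ probe set in it 1.16% and 2.15%. List counts below are to be set beside the share of the same setting. The median size of the difference between ad libitum and control dogs was 0.32 in subcutaneous fat and 0.14 in gonadal fat over all genes, and the subcutaneous one was the larger in 73% of them. Without dogs 2, 3, 4 and 6 the medians were 0.24 and 0.21 and the share 56.2%, and without only the 4 arrays that stood farthest apart the share was 64.1%. Leaving out any 1 dog gave 65.9% (dog 4) to 74.7% (dog 5), and 68.1% without dog 1, which had no such array. Whether the lower share came from those arrays or from fewer dogs was not tested. Among the 576 genes with a negative interaction it was the larger in 94.3%, with a median of 0.76 in subcutaneous and -0.010 in gonadal fat. Among the 312 with a positive interaction it was the larger in 89.4%, with medians of -0.76 and 0.10. Without dogs 2, 3, 4 and 6 the shares in the same genes were 80.4% and 79.2%. These genes were taken on the same arrays, so the shares describe them and are no further test. The depots lay farther apart in ad libitum than in control dogs in 48.4% of all genes, in 61.6% of the negative ones and in 42.9% of the positive ones.

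**Figure D1:**
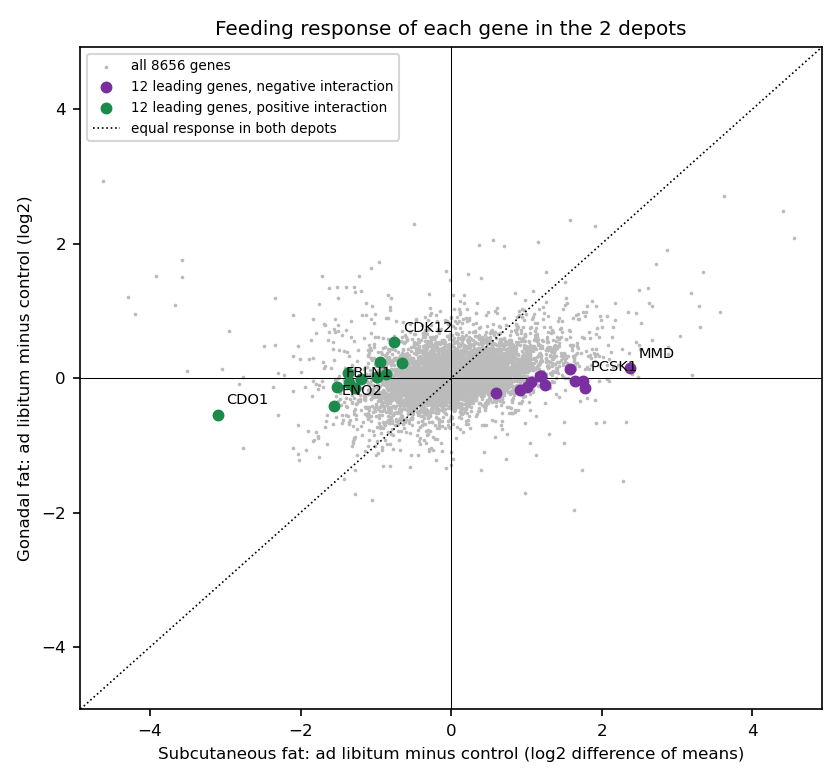
Ad libitum minus control difference of group means (log2) in subcutaneous fat (x axis) and gonadal fat (y axis) for 8656 genes (grey), with the 12 leading genes of each sign coloured. Points on the dotted line have the same difference in both depots, and the 24 coloured genes spread along the x axis, from -3.10 for CDO1 to 2.37 for MMD, while their gonadal values stay between -0.54 and 0.53.

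PCSK1, the proprotein convertase that processes prohormones in secretory granules, was among the 12 genes with the smallest p on the negative side. Its subcutaneous level was 6.05, 5.53, 5.92 and 6.25 in control dogs 1, 3, 4 and 9 and 8.73, 7.08, 7.68, 7.12 and 7.80 in ad libitum dogs 2, 5, 6, 7 and 8. Its gonadal level was 5.69, 5.71, 5.85 and 5.64 in the control dogs and 6.62, 5.61, 4.90, 5.65 and 5.58 in the ad libitum dogs. All 5 ad libitum dogs were above all 4 control dogs in subcutaneous fat, and the groups overlapped in gonadal fat. The depot differences, -0.36, 0.18, -0.072 and -0.61 in control and -2.11, -1.47, -2.78, -1.47 and -2.22 in ad libitum dogs, did not overlap. The interaction was -1.80 ± 0.31 (estimate ± standard error from limma, as after every ± below, adjusted p = 0.416), and both probe sets of the gene had this sign. In 2.44% of all genes every ad libitum dog lay below every control dog in this way, and in 1.13% above.

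SDHAF2, GLRX2 and ANTKMT, all among the 12, encode mitochondrial proteins. The share of such genes among all genes was not counted, so an excess among the 12 was not tested. SDHAF2, the assembly factor that attaches the flavin group to succinate dehydrogenase, had depot differences of 0.54, 0.14, 0.46 and -0.10 in the control dogs and -0.92, -0.35, -1.16, -0.96 and -1.01 in the ad libitum dogs, with an interaction of -1.14 ± 0.23 (adjusted p = 0.416). GLRX2, a mitochondrial glutaredoxin, stood at 0.41, 0.18, 0.37 and 0.27 in control and -0.38, -0.45, -0.80, -0.44 and -0.45 in ad libitum dogs, and ANTKMT, which methylates the mitochondrial ADP/ATP carrier, had an interaction of -1.09 ± 0.22. In these 3 genes no ad libitum dog reached the lowest control dog. For signalling, IL10RB, the receptor chain shared by interleukin 10 and related cytokines, had depot differences of -0.38, -0.76, 0.19 and -0.21 in control and -1.66, -1.07, -2.37, -1.77 and -1.79 in ad libitum dogs, and all 3 of its probe sets gave a negative interaction at an unadjusted p under 0.05. MARK1, a kinase of microtubule-associated proteins, had an interaction of -1.92 ± 0.40, with 1.77 between the feeding groups in subcutaneous and -0.14 in gonadal fat.

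MMD, a membrane protein of the progestin and adipoQ receptor family, had the widest interaction of the 12 at -2.23 ± 0.49. Its depot difference was -2.25, -0.12, -2.44, -2.15 and -2.14 in ad libitum dogs 2, 5, 6, 7 and 8, so that dog 5 lay apart from the rest, and -0.29, 0.90, 0.79 and 0.24 in the control dogs, with an overlap by that dog. TTC38, a tetratricopeptide repeat protein, was higher in gonadal fat of control dogs, by 1.46 ± 0.22 (adjusted p = 0.0125), and its difference in ad libitum dogs was 0.11 ± 0.20. Depot differences of single genes are given with limma's adjusted p in either group, and a call in 1 group alone does not show that the groups differ, which only the interaction tests. The remaining names were LOC491883 at -1.17, NUDT22, a Nudix hydrolase, at -1.12 (-0.33 for its other probe set, unadjusted p = 0.176 in limma), the membrane protein TMEM187 at -1.14 and KIAA0930 at -1.68. Over the 24 leading genes of both signs the adjusted p ran from 0.312 to 0.421.

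On the positive side CDK12, the kinase that phosphorylates the tail of RNA polymerase II during elongation, had depot differences of -1.25, -0.75, -0.94 and -0.92 in control dogs and 0.60, 0.0092, 0.24, 0.28 and 0.48 in ad libitum dogs. All control dogs were below 0 and all ad libitum dogs above it. The interaction was 1.28 ± 0.20 (adjusted p = 0.312), with -0.75 between the feeding groups in subcutaneous fat and 0.53 in gonadal fat. Of its 2 probe sets both had this sign and 1 had an unadjusted p under 0.05. FBLN1, a fibulin of the extracellular matrix, stood at -0.38, -1.28, -0.090 and -0.64 in control and 1.16, 0.46, 1.02, 0.90 and 0.37 in ad libitum dogs, an interaction of 1.38 ± 0.28 (adjusted p = 0.416). All 5 of its probe sets gave a positive interaction at an unadjusted p under 0.05, and the depot difference was below 0 in all 4 control dogs and above 0 in all 5 ad libitum dogs.

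CDO1, cysteine dioxygenase, which starts the breakdown of cysteine to taurine and sulfate and is abundant in adipocytes, had the widest positive value of the leading genes. Its subcutaneous level was 14.78, 13.49, 13.35 and 14.38 in the control dogs and 9.78, 10.71, 12.01, 12.49 and 9.51 in the ad libitum dogs, against 15.36, 14.06, 14.73 and 14.90 and 14.84, 14.10, 13.56, 14.94 and 13.65 in gonadal fat. Every ad libitum dog was below every control dog in subcutaneous fat, and the gonadal levels overlapped. In ad libitum dogs it was higher in gonadal fat by 3.32 ± 0.42 (adjusted p = 0.00315), and in control dogs the difference was 0.76 ± 0.47 (adjusted p = 0.363). The interaction was 2.56 ± 0.63 (adjusted p = 0.416), with the same sign in all 4 probe sets.

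**Figure D2:**
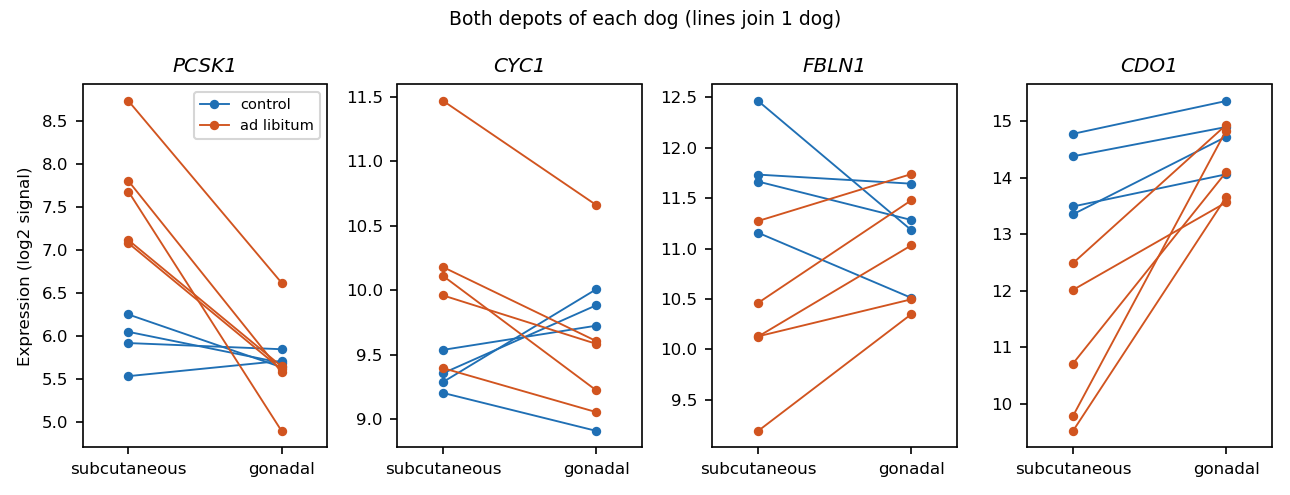
Log2 expression of PCSK1, CYC1, FBLN1 and CDO1 in the subcutaneous and gonadal array of each dog, with a line joining the arrays of 1 dog (4 control dogs in blue, 5 ad libitum dogs in orange). The groups stand apart on the subcutaneous side for PCSK1 and CDO1 and meet on the gonadal side, and for FBLN1 the lines of the control dogs slope down and those of the ad libitum dogs up.

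Among the other positive genes, C3, the central protein of complement, was higher in gonadal fat of both groups, by 2.54 ± 0.25 in control dogs (adjusted p = 0.00248) and 3.98 ± 0.22 in ad libitum dogs (adjusted p = 1.15e-04). Its depot differences were 3.05, 3.20, 2.27 and 1.64 and 3.95, 3.63, 3.74, 4.34 and 4.23, without overlap, and the interaction was 1.44 ± 0.34 (adjusted p = 0.416). All 6 probe sets of C3 had this sign, and 3 had an unadjusted p under 0.05. BCAM, a laminin receptor, lay at 1.25, 0.91, 0.25 and 0.42 in control and 1.56, 2.06, 2.51, 1.57 and 1.76 in ad libitum dogs, all on the gonadal side. OGA, the enzyme that removes O-GlcNAc from proteins, had an interaction of 1.18 ± 0.25, and ENO2, an enolase isoform of glycolysis, one of 1.15 ± 0.25. ADD3, an adducin of the membrane skeleton, had 0.93 ± 0.21, and CCND2, cyclin D2, 1.29 ± 0.33. SLC22A17, a receptor for lipocalin 2, had 1.00 ± 0.25, the zinc finger protein ZNF311 0.87 ± 0.17 and LOC479761 1.13 ± 0.17. All 12 positive leading genes had non-overlapping dogs, against 1.13% of all genes. They were taken for the smallest p on these same dogs, so this describes them and is no further test. Their gonadal difference between the feeding groups ran from -0.54 to 0.53.

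**Figure D3:**
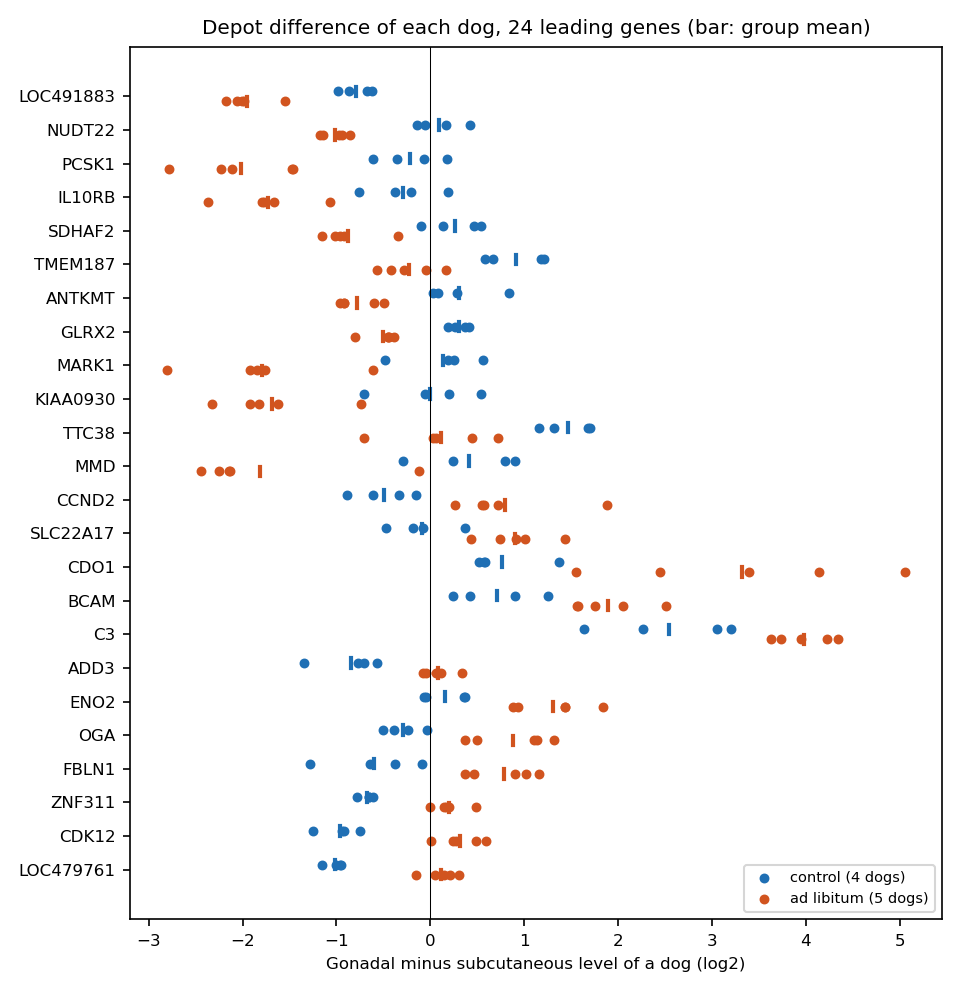
Gonadal minus subcutaneous log2 level of each dog for the 12 leading genes of either sign (control dogs blue, ad libitum dogs orange, bars for group means). The groups do not overlap in 23 of the 24 genes, which were taken for the smallest p on these dogs, and MMD is the exception through ad libitum dog 5 at -0.12.

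Of the metabolic groups, the genes of oxidative phosphorylation, the respiratory chain and ATP synthase of mitochondria, shared 1 sign. All 28 measured of 37 listed had a negative interaction, against 51.2% of all genes, and 13 had an unadjusted p under 0.05, against 6.65% of all genes. The median was -0.48, against -0.012 over all genes. The median ad libitum minus control difference over the list was 0.48 in subcutaneous and -0.0030 in gonadal fat. By dog the median depot difference of the list was 0.35, -0.083, 0.34 and 0.10 in control dogs and -0.40, -0.0055, -0.39, -0.38 and -0.43 in ad libitum dogs, so that ad libitum dog 5 lay within the control dogs. CYC1, cytochrome c1 of complex III, stood at 0.53, -0.29, 0.72 and 0.19 in control and -0.81, -0.34, -0.89, -0.38 and -0.57 in ad libitum dogs, with an interaction of -0.88 ± 0.25 (adjusted p = 0.428). NDUFV2, a subunit of complex I, had -0.73 ± 0.20 (adjusted p = 0.428), and SDHC, an anchor subunit of succinate dehydrogenase, -0.67 ± 0.20 in a gene whose 3 probe sets all had an unadjusted p under 0.05. ATP5F1B, the catalytic subunit of ATP synthase and the list's highest level, had -0.33 ± 0.16. Without dogs 2, 3, 4 and 6 all 28 were still negative with a median of -0.46, and 5 had an unadjusted p under 0.05 (17.9%, against 2.52% of all genes). With the actin signal as covariate 26 were negative with a median of -0.29, and 0 had an unadjusted p under 0.05, against 3.08% of all genes. With the other actin 5′ probe set in the covariate 27 were negative with a median of -0.38. An unadjusted p under 0.05 was reached by 2 of these (7.14%), against 2.15% of all genes. Without the dog as a block the unadjusted count was 4 (14.3%, against 4.3% of all genes). Leaving out 1 dog gave 5 without dog 1, 6 without dog 4, 8 without dog 8 and 9 to 19 otherwise, with medians between -0.57 and -0.40.

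**Figure D4:**
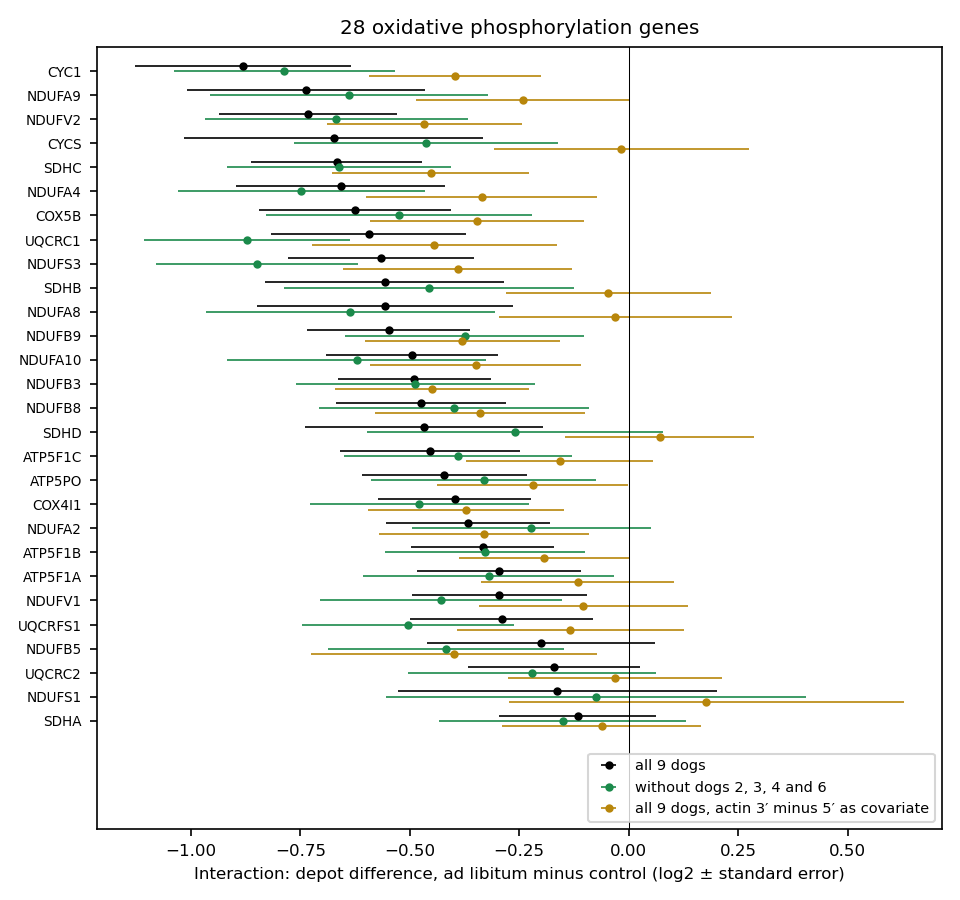
Interaction (log2 ± standard error) of 28 oxidative phosphorylation genes over all 9 dogs (black), without dogs 2, 3, 4 and 6 (green) and with the actin 3′ minus 5′ difference as a covariate (yellow). All 28 black and green points lie below 0, and of the yellow points 26 lie below and 2 above, with a median nearer to 0.

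Genes of the citric acid cycle and of pyruvate handling stood on the same side, with 19 of 20 measured negative, 6 at an unadjusted p under 0.05, against 6.65% of all genes, and a median of -0.60. MPC2, a subunit of the mitochondrial pyruvate carrier, had an interaction of -0.97 ± 0.33. The pyruvate dehydrogenase subunits PDHB and PDHA1 had -1.01 ± 0.34 and -0.71 ± 0.24. PDHB lay at 0.41, 0.087, 0.66 and -0.38 in control dogs and -0.69, -0.023, -1.71, -0.86 and -0.78 in ad libitum dogs, and the groups overlapped. The count of 6 was 3 without dog 4 or without dog 6. The list held 16 negative genes with 1 at that p and a median of -0.37 without dogs 2, 3, 4 and 6, and 13 negative genes with 0 at that p and a median of -0.099 with the actin covariate, and 2 at that p without the block.

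Triglyceride assembly, the enzymes that join fatty acids to glycerol, had 11 of 13 measured genes negative, 4 at an unadjusted p under 0.05, against 6.65% of all genes, and a median of -1.17. PCK1, an enzyme of the route from pyruvate to glycerol phosphate in fat, had depot differences of 0.37, 1.82, 1.45 and 1.43 in control dogs and -0.68, 0.11, -2.64, 0.011 and -0.38 in ad libitum dogs, with no overlap, and an interaction of -1.98 ± 0.56 (adjusted p = 0.428). AGPAT2, an acyltransferase of triglyceride synthesis, had -1.71 ± 0.56 and DGAT2, which adds the last fatty acid, -1.37 ± 0.46. DGAT2 differed between the feeding groups by 2.35 in subcutaneous and 0.98 in gonadal fat, and all 4 of its probe sets had an unadjusted p under 0.05. The groups overlapped in AGPAT2 and DGAT2. By dog the list's median depot difference was 1.03, 0.42, 1.86 and -0.00048 in control and -0.097, 1.22, -1.86, -0.16 and -0.060 in ad libitum dogs, and ad libitum dogs 5 and 6 were the highest and the lowest of their group. The count of 4 became 8 without dog 5. The triglyceride list held 10 negative genes with 1 at that p and a median of -0.28 without dogs 2, 3, 4 and 6, and 6 negative genes with 0 at that p, 2 of the other sign at it and a median of 0.0086 with the actin covariate, and 3 at that p without the block. With the other actin 5′ probe set in the covariate the triglyceride list held 11 negative genes with 0 at that p and a median of -0.53.

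Fatty acid synthesis had 15 of 16 measured genes negative, 2 at an unadjusted p under 0.05 (12.5%, against 6.65% of all genes) and a median of -0.48. Leaving out 1 dog gave 0 (without dog 4 or 7) to 4 (without dog 5). Fatty acid synthesis held 10 negative genes with 1 at that p and a median of -0.21 without dogs 2, 3, 4 and 6, and 9 negative genes with 0 at that p and a median of -0.19 with the actin covariate, and 1 at that p without the block. TKT, transketolase of the pentose phosphate route, and ME1, malic enzyme, which both belong to NADPH supply, had -0.82 ± 0.30 and -0.95 ± 0.41, and THRSP, a regulator of lipogenesis, -2.01 ± 0.91. Lipolysis and the lipid droplet had 12 of 13 negative and 0 at an unadjusted p under 0.05, with a median of -0.73, and 6 without dog 5. The lipolysis list held 7 negative genes with 0 at that p and a median of -0.038 without dogs 2, 3, 4 and 6, and 3 negative genes with 0 at that p, 1 of the other sign at it and a median of 0.17 with the actin covariate, and 0 at that p without the block. With the other actin 5′ probe set in the covariate the lipolysis list held 9 negative genes with 0 at that p and a median of -0.19. PNPLA3, a lipid droplet acylhydrolase, differed between the feeding groups by 4.41 in subcutaneous and 2.48 in gonadal fat, an interaction of -1.93 ± 0.88. MGLL, monoacylglycerol lipase, had -0.77 ± 0.41 and BSCL2, seipin of the droplet, -0.56 ± 0.28. Fatty acid uptake and oxidation had 21 of 26 negative, 4 at an unadjusted p under 0.05 (15.4%, against 6.65% of all genes), and a median of -0.51. ACSL1, which activates fatty acids, had -1.15 ± 0.42 and lay at -0.73, 0.80, -1.33, -1.16 and -0.81 in ad libitum dogs, where dog 5 stood apart. The acyl-CoA dehydrogenases ACADL and ACADS had -0.86 ± 0.32 and -0.80 ± 0.34. The count of 4 was 11 without dog 5, 0 without dog 1, 1 without dog 7 and 2 without any 1 of dogs 2, 4, 8 and 9. Uptake and oxidation held 19 negative genes with 2 at that p and a median of -0.18 without dogs 2, 3, 4 and 6, and 14 negative genes with 0 at that p and a median of -0.089 with the actin covariate, and 1 at that p without the block. Cholesterol synthesis had 11 of 13 negative, 1 at an unadjusted p under 0.05 (7.69%, near the 6.65% of all genes), which was 3 without dog 3 and 4 without dog 5. That gene, CYP51A1, a demethylase of lanosterol, lay at -0.24, -0.26, 0.78 and 0.027 in control and -1.32, -0.39, -1.83, -0.69 and -0.99 in ad libitum dogs, with an interaction of -1.12 ± 0.34. SC5D of the same route had -0.71 ± 0.35, and INSIG1, a brake on sterol synthesis, -1.52 ± 0.76, which turned to 0.11 with the actin covariate. Cholesterol synthesis held 10 negative genes with 0 at that p and a median of -0.25 without dogs 2, 3, 4 and 6, and 7 negative genes with 0 at that p and a median of -0.024 with the actin covariate, and 1 at that p without the block.

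Adipocyte identity genes had 19 of 21 measured negative, 1 at an unadjusted p under 0.05 (4.76%, below the 6.65% of all genes) and a median of -0.73. The count of 1 was 2 without dog 2, 3 or 9 and 10 without dog 5. The adipocyte list held 9 negative genes with 1 at that p and a median of 0.015 without dogs 2, 3, 4 and 6, and 4 negative genes with 0 at that p, 2 of the other sign at it and a median of 0.21 with the actin covariate, and 1 at that p without the block. With the other actin 5′ probe set in the covariate the adipocyte list held 13 negative genes with 0 at that p and a median of -0.091. The sign of the list thus depended on these settings. LEP, leptin, the adipocyte hormone that signals fat mass, had depot differences of 0.97, -0.0047, 1.23 and 0.40 in the control dogs and -1.04, 0.82, -1.58, 0.071 and -0.13 in the ad libitum dogs, with overlap. It lay higher in ad libitum dogs in both depots, by 2.71 in subcutaneous and 1.69 in gonadal fat, with an interaction of -1.02 ± 0.48 (adjusted p = 0.512). PPARG, the transcription factor of adipocyte differentiation, had -0.61 ± 0.61 and ADIPOQ -0.37 ± 0.39. Both were positive without dogs 4 and 6, at 0.095 and 0.047, and with the actin covariate, at 0.37 and 0.21. Among 11 measured adipokines and their receptors 7 were negative and 0 had an unadjusted p under 0.05, with a median of -0.33. The negative count at that p was 3 without dog 3, 2 without dog 5 and 1 without dog 1 or 9. The adipokine list held 6 negative genes with 0 at that p and a median of -0.15 without dogs 2, 3, 4 and 6, and 4 negative genes with 0 at that p, 2 of the other sign at it and a median of 0.21 with the actin covariate, and 0 at that p without the block. With the other actin 5′ probe set in the covariate the adipokine list held 6 negative genes with 0 at that p, 1 of the other sign at it and a median of -0.064. ADIPOR1, an adiponectin receptor, had -0.77 ± 0.37, and SFRP5, a Wnt inhibitor secreted by fat, -1.37 ± 0.66, which was -0.56 with group means below the floor set to it. The adipocyte list averaged 9.58 to 10.61 in subcutaneous arrays of control dogs and 9.77 to 11.66 in those of ad libitum dogs, and 9.79 to 11.47 and 9.59 to 11.70 in gonadal arrays. Its part in the lipid and mitochondrial lists was not tested.

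**Figure D5:**
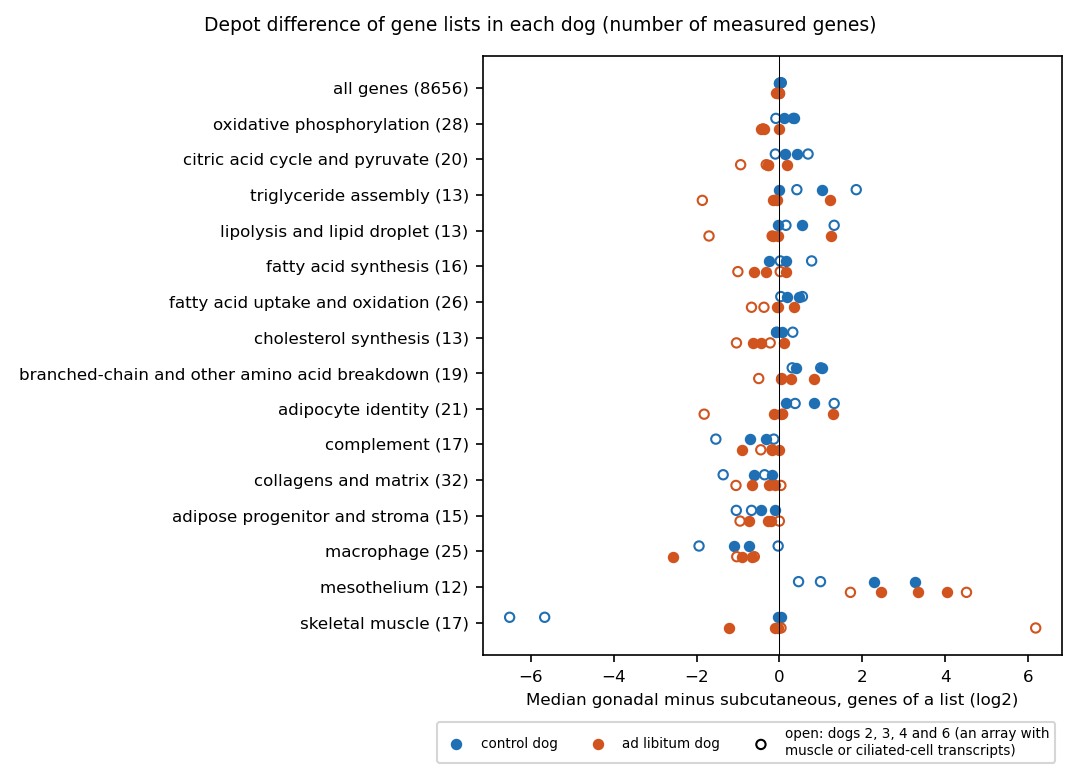
Median gonadal minus subcutaneous log2 difference over the measured genes of a list, 1 point per dog (control dogs blue, ad libitum dogs orange, open points for dogs 2, 3, 4 and 6). Among ad libitum dogs triglyceride assembly runs from -1.86 in dog 6 to 1.22 in dog 5, and skeletal muscle genes lie at -6.51 and -5.67 in control dogs 3 and 4 and at 6.19 in ad libitum dog 2.

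Amino acid breakdown had 18 of 19 measured genes negative, 4 of them at an unadjusted p under 0.05 (21.1%, against 6.65% of all genes), and a median of -0.71, while CDO1 was the only member on the positive side. MCCC2, a carboxylase of leucine breakdown, had an interaction of -1.30 ± 0.40. ASNS, which makes asparagine and was listed here among amino acid enzymes, lay at -0.57, -0.56, 0.34 and -0.32 in control and -1.07, -0.95, -2.36, -1.94 and -1.70 in ad libitum dogs, an interaction of -1.33 ± 0.34 (adjusted p = 0.416) with 3 of 3 probe sets at an unadjusted p under 0.05. The amino acid list held 17 negative genes with 3 at that p, 1 of the other sign at it and a median of -0.44 without dogs 2, 3, 4 and 6, and 12 negative genes with 1 at that p, 1 of the other sign at it and a median of -0.10 with the actin covariate, and 1 at that p without the block. The count of 4 was 10 without dog 5 and 2 without any 1 of dogs 1, 2, 4, 6, 7 and 8. Antioxidant enzymes had 18 of 20 negative and a median of -0.21. At an unadjusted p under 0.05 stood 3 negative genes (15%, against 6.65% of all genes) and 1 positive gene (5%, against 3.6%). The negative count was 1 without dog 4 and 5 without dog 3. The antioxidant list held 17 negative genes with 0 at that p and a median of -0.31 without dogs 2, 3, 4 and 6, and 10 negative genes with 0 at that p and a median of -0.062 with the actin covariate, and 1 at that p without the block. PRDX3, a mitochondrial peroxiredoxin, had -0.94 ± 0.28. GPX8 and GPX7, peroxidases of the endoplasmic reticulum, had -0.47 ± 0.17 and -0.82 ± 0.29, and GPX8 lay at -0.21, -0.42, -0.067 and -0.30 in control and -0.82, -0.62, -0.78, -0.79 and -0.59 in ad libitum dogs without overlap. Insulin signalling had 7 genes of either sign and a median of 0.12. At an unadjusted p under 0.05 stood 2 positive genes (14.3%, against 3.6% of all genes) and 1 negative gene (7.14%, against 6.65%). The insulin list held 10 positive genes with 1 at that p and a median of 0.38 without dogs 2, 3, 4 and 6, and 10 positive genes with 1 at that p and a median of 0.28 with the actin covariate, and 1 at that p without the block. IRS2 had -0.94 ± 0.27 and IRS1 0.82 ± 0.25, opposite signs for the adapters of the insulin receptor, and the kinase subunit PIK3R1 had 0.55 ± 0.21. IRS1 lay at 0.26, -0.64, 0.0099 and -0.34 in control and 0.41, 0.83, 0.42, 0.43 and 1.09 in ad libitum dogs, without overlap, at low levels of 4.36 to 4.99.

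Complement, the cascade of plasma proteins that marks targets for immune cells, had 13 of 17 measured genes positive, 5 at an unadjusted p under 0.05, against 3.6% of all genes, and a median of 0.60. The median difference between the feeding groups was -0.56 in subcutaneous and -0.065 in gonadal fat. C1S, a protease that starts the classical pathway, was lower in gonadal fat of control dogs, at -1.34 ± 0.23 (adjusted p = 0.0207), and stood at -0.34 ± 0.21 in ad libitum dogs, an interaction of 1.00 ± 0.31 (adjusted p = 0.442), with some overlap of the dogs. SERPING1, the inhibitor of that protease, had 0.84 ± 0.27 with 5 of 5 probe sets at an unadjusted p under 0.05. C8G, a chain of the terminal complement complex, went the other way, at -0.11, 0.13, -0.15 and -0.077 in control and -2.91, -0.89, -2.65, -1.87 and -2.32 in ad libitum dogs. Only its mean in subcutaneous fat of ad libitum dogs, 5.24, reached the floor, and with the other means set to the floor its interaction was -1.24. Leaving out 1 dog gave 5 or 6 positive complement genes at an unadjusted p under 0.05. The complement list held 11 positive genes with 2 at that p, 1 of the other sign at it and a median of 0.42 without dogs 2, 3, 4 and 6, and 16 positive genes with 5 at that p, 1 of the other sign at it and a median of 1.04 with the actin covariate, and 2 at that p without the block.

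Collagens and matrix had 21 of 32 measured genes positive, 2 at an unadjusted p under 0.05 (6.25%, against 3.6% of all genes), which was 6 without dog 1 or 5, and a median of 0.26. The matrix list held 14 positive genes with 1 at that p, 1 of the other sign at it and a median of -0.096 without dogs 2, 3, 4 and 6, and 27 positive genes with 2 at that p, 1 of the other sign at it and a median of 0.51 with the actin covariate, and 2 at that p without the block. COL14A1, a collagen on the surface of fibrils, lay at -0.79, -1.80, -2.83 and -0.39 in control and 1.33, -0.43, 2.63, -0.040 and 0.69 in ad libitum dogs, an interaction of 2.29 ± 0.68 (adjusted p = 0.440) with 6 of 7 probe sets at an unadjusted p under 0.05 and an overlap of dogs 5 and 9. COL4A2, of the basement membrane, had -0.77 ± 0.30, on the other side. FBN1, fibrillin of elastic microfibrils, was lower in gonadal fat of both groups, at -1.98 ± 0.31 in control dogs (adjusted p = 0.0137) and -1.56 ± 0.27 in ad libitum dogs (adjusted p = 0.0125), and its interaction was 0.43 ± 0.41. TGF-beta, BMP and Wnt genes had 13 of 19 positive, 3 at an unadjusted p under 0.05 (15.8%, against 3.6% of all genes), and a median of 0.47. The count of 3 was 5 without dog 5 or 9 and 1 without dog 6. This signalling list held 12 positive genes with 1 at that p, 1 of the other sign at it and a median of 0.44 without dogs 2, 3, 4 and 6, and 13 positive genes with 3 at that p and a median of 0.11 with the actin covariate, and 3 at that p without the block. TGFBR3, a co-receptor for TGF-beta, had 1.29 ± 0.41, BMP4 0.93 ± 0.39 and WIF1, a secreted Wnt inhibitor, 2.13 ± 0.85. WIF1 was higher in gonadal fat of control dogs by 3.17 ± 0.63 (adjusted p = 0.0301) and of ad libitum dogs by 5.31 ± 0.56 (adjusted p = 0.00135), and lay at 4.84, 3.32, 0.37 and 4.16 in the control dogs, where dog 4 was lowest.

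Progenitor and stroma markers had 11 of 15 measured genes positive, 1 at an unadjusted p under 0.05 (6.67%, against 3.6% of all genes), and a median of 0.40. The count of 1 was 4 without dog 1, 2 without dog 6 and 0 without dog 3, 4 or 8. The stroma list held 13 positive genes with 1 at that p and a median of 0.30 without dogs 2, 3, 4 and 6, and 12 positive genes with 4 at that p and a median of 0.77 with the actin covariate, and 0 at that p without the block. NT5E, a progenitor surface nucleotidase, had 1.94 ± 0.81. DPP4, a peptidase that marks interstitial progenitors, had 2.27 ± 1.04 and lay at -5.38, -5.82, -5.47 and -1.48 in control dogs and -1.27, -5.03, -1.63, -2.28 and -1.12 in ad libitum dogs, so that control dog 9 lay among the ad libitum dogs and ad libitum dog 5 nearest to the other control dogs. PDGFRB, a receptor of mural and stromal cells, had 0.82 ± 0.42. Inflammation and chemokines had 14 of 21 positive, 3 at an unadjusted p under 0.05 (14.3%, against 3.6% of all genes), and a median of 0.27. The inflammation list held 8 positive genes with 2 at that p and a median of -0.039 without dogs 2, 3, 4 and 6, and 11 positive genes with 2 at that p and a median of 0.20 with the actin covariate, and 2 at that p without the block. CCL19, a chemokine that attracts lymphocytes and dendritic cells, had a mean of 6.06 in subcutaneous fat of control dogs. Dog 5 lay apart among the ad libitum dogs with a depot difference of -2.61. The means outside the subcutaneous fat of control dogs were below the floor. With those means at the floor the depot difference of control dogs was -2.06 and the interaction 2.06 in place of 2.37. NFKB1, a subunit of NF-kappa-B, had 0.70 ± 0.24 and its inhibitor NFKBIA 0.66 ± 0.25.

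Signalling and stress lists were mixed. The growth hormone and IGF list had 9 of 15 measured genes positive. At an unadjusted p under 0.05 stood 5 positive genes (33.3%, against 3.6% of all genes) and 1 negative gene (6.67%, against 6.65%). SOCS2, a feedback inhibitor of growth hormone signalling, had 0.97 ± 0.30 and the receptor IGF1R 1.18 ± 0.47. NNAT, neuronatin, an imprinted gene of fat and brain kept in this list, had -1.92 ± 0.47 (adjusted p = 0.416) and lay at 1.26, 0.47, 1.53 and 0.95 in control and -0.76, 0.66, -1.83, -1.52 and -0.90 in ad libitum dogs, with overlap through dog 5. NNAT differed between the feeding groups by 3.18 in subcutaneous and 1.26 in gonadal fat. The 5 positive genes were 2 without any 1 of dogs 1, 3 and 9 and 3 without any 1 of dogs 2, 5, 6 and 8. The growth hormone list held 9 positive genes with 4 at that p, 3 of the other sign at it and a median of 0.33 without dogs 2, 3, 4 and 6, and 9 positive genes with 3 at that p, 2 of the other sign at it and a median of 0.37 with the actin covariate, and 2 at that p without the block. Of 11 clock genes 6 were positive. At an unadjusted p under 0.05 stood 2 positive genes (18.2%, against 3.6% of all genes) and 1 negative gene (9.09%, against 6.65%). The positive count was 1 without any 1 of dogs 1, 2, 3 and 4. Without dog 9 there were 3 positive and 4 negative genes at that p. The clock list held 8 positive genes with 0 at that p and a median of 0.25 without dogs 2, 3, 4 and 6, and 8 positive genes with 1 at that p and a median of 0.38 with the actin covariate, and 0 at that p without the block. ARNTL, which drives the clock, lay at -1.35, -0.41, -1.27 and -0.096 in control and 0.045, 1.89, 1.57, 0.64 and 0.0095 in ad libitum dogs, without overlap, and had 1.61 ± 0.47 (adjusted p = 0.433) with 3 of 3 probe sets at an unadjusted p under 0.05. PER1 had 0.49 ± 0.19 and NR1D2, a repressor of ARNTL, -0.90 ± 0.36. The labels name no hour of sampling.

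Heat shock genes were positive in 10 of 12, 2 at an unadjusted p under 0.05 (16.7%, against 3.6% of all genes), with a median of 0.27. The count of 2 was 4 without dog 6 or 9. The heat shock list held 12 positive genes with 0 at that p and a median of 0.38 without dogs 2, 3, 4 and 6, and 9 positive genes with 2 at that p and a median of 0.40 with the actin covariate, and 3 at that p without the block. The chaperone HSPH1 was lower in gonadal fat of control dogs, at -2.81 ± 0.48 (adjusted p = 0.0196), stood at -0.52 ± 0.43 in ad libitum dogs and had an interaction of 2.29 ± 0.65 (adjusted p = 0.433). HSP90AA1 had 1.00 ± 0.31 and the co-chaperone BAG3 0.98 ± 0.45. Of 20 genes of the unfolded protein list 14 were positive. At an unadjusted p under 0.05 stood 2 positive genes (10%, against 3.6% of all genes) and 1 negative gene (5%, against 6.65%). The count of 2 was 4 without dog 9, 1 without dog 4 and 0 without any 1 of dogs 1, 2, 3, 6, 7 and 8. The chaperone HSPA5 had 0.61 ± 0.27 and the isomerase PDIA6 0.53 ± 0.24. The unfolded protein list held 14 positive genes with 0 at that p, 1 of the other sign at it and a median of 0.24 without dogs 2, 3, 4 and 6, and 16 positive genes with 0 at that p, 1 of the other sign at it and a median of 0.26 with the actin covariate, and 1 at that p without the block. Of 18 immediate early genes 10 were negative, 2 at an unadjusted p under 0.05 (11.1%, against 6.65% of all genes), among them GADD45G, a stress response gene, at -2.52 ± 0.70 and FOS at -3.10 ± 1.11. FOS lay at 0.75, 2.97, 2.18 and 4.87 in control dogs and 1.80, 1.09, -3.55, -0.65 and -0.72 in ad libitum dogs, a wide spread within either group. The list median of -0.12 was 0.31 without dog 6, 0.18 without dog 8 and 0.36 without dog 9. It stayed negative without any other single dog. At that p stood 2 positive and 2 negative genes without dog 6, and 1 of either sign without dog 9. The immediate early list held 9 negative genes with 1 at that p and a median of -0.021 without dogs 2, 3, 4 and 6, and 7 negative genes with 0 at that p, 2 of the other sign at it and a median of 0.46 with the actin covariate, and 2 at that p without the block. The kinases of transcription elongation and splicing had 12 of 13 positive and 5 at an unadjusted p under 0.05 (38.5%, against 3.6% of all genes). This list was drawn up with CDK12, a leading gene on these same dogs, known. Its share thus describes the list and is no further test. CLK4 and CLK2, which phosphorylate splicing factors, had 0.72 ± 0.21 and 0.82 ± 0.29. The 5 were 2 without dog 4 and 3 without any 1 of dogs 1, 2 and 6. The kinase list held 9 positive genes with 2 at that p and a median of 0.32 without dogs 2, 3, 4 and 6, and 9 positive genes with 1 at that p and a median of 0.16 with the actin covariate, and 3 at that p without the block.

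Markers of other cell types differed by array. Of 17 measured skeletal muscle genes 16 were positive, with a median of 2.79. An unadjusted p under 0.05 was reached by 4 of these (23.5%, against 3.6% of all genes), and by 1 to 9 with 1 dog left out. Without dogs 2, 3, 4 and 6 the median was -0.54 with 15 of 17 negative. Dog 7, whose subcutaneous array also stood apart, stayed in this set. Its list median was -1.22, against -0.11 to 0.031 in the other dogs kept. The mean of the list ran over 4.04 to 9.36 in subcutaneous arrays of control dogs, 3.94 to 5.15 in those of ad libitum dogs, 3.95 to 4.23 in gonadal arrays of control dogs and 3.81 to 9.10 in those of ad libitum dogs. MYH4 and RYR1 were below the floor in every array. Of 20 genes of ciliated and oviduct epithelium 3 passed the filter, all positive. The mean ran over 3.15 to 5.89, 3.04 to 3.15, 3.03 to 3.13 and 2.97 to 7.30 in the same order of groups, and FOXJ1, DNAH9, SPEF2, CCDC39 and PAX8 were below the floor in every array. Mesothelium genes were positive in 8 of 12, 4 at an unadjusted p under 0.05 (33.3%, against 3.6% of all genes), with a median of 0.67. UPK1B of the mesothelial surface had gonadal means of 7.22 in control and 7.42 in ad libitum dogs. Its subcutaneous means were below the floor, so the depot difference has only a bound, of 3.22 and 3.42 against the floor. EZR, ezrin of microvilli, had an interaction of 0.66 ± 0.24. The mesothelial mean of the subcutaneous array of control dog 4 was 5.73, against 4.09 to 4.31 in the other subcutaneous arrays, and the count of 4 was 1 without any 1 of dogs 4, 5 and 6, and 2 without dog 3 or 7. The mesothelium list held 10 positive genes with 0 at that p and a median of 0.45 without dogs 2, 3, 4 and 6, and 8 positive genes with 1 at that p and a median of 0.45 with the actin covariate, and 1 at that p without the block. The part of these cells in the interaction of other genes was not tested beyond the values without those dogs.

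Macrophage markers had 11 of 25 measured genes positive, 0 at an unadjusted p under 0.05 (1 negative), and a median of -0.087. The macrophage list held 9 positive genes with 1 at that p, 1 of the other sign at it and a median of -0.25 without dogs 2, 3, 4 and 6, and 14 positive genes with 1 at that p, 1 of the other sign at it and a median of 0.17 with the actin covariate, and 0 at that p without the block. FCGR1A, an antibody receptor, had -1.16 ± 0.52, TREM2, a receptor of lipid-associated macrophages, -0.98 ± 0.44 (-0.61 with group means below the floor set to it) and MRC1, the mannose receptor of resident macrophages, 1.07 ± 0.54. FCGR1A was lower in gonadal fat of ad libitum dogs, at -1.77 ± 0.35 (adjusted p = 0.0173 in limma), and MRC1 was lower in gonadal fat of control dogs, at -1.84 ± 0.40 (adjusted p = 0.0405). In the other feeding group the mean of either gene was also lower in gonadal fat, by a smaller amount. The macrophage mean was 9.70 in the subcutaneous array of ad libitum dog 5, against 7.45 to 8.45 in the other subcutaneous arrays, and the same dog's array had the lowest adipocyte mean of the ad libitum dogs there, 9.77.

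The depot differences themselves were called in 332 genes in control dogs, 133 higher in gonadal fat (1.54%) and 199 lower (2.3%), and in 762 genes in ad libitum dogs, 287 higher (3.32%) and 475 lower (5.49%). Both lists held 156 genes, 47% of the control list and 20.5% of the ad libitum list, and all 156 had the same sign in both groups. The control list rests on 4 dogs and the ad libitum list on 5, so their lengths are not a comparison of the groups, and no gene of either list passed the test of the interaction. The median size of the depot difference over all probe sets was 0.434, 0.422, 0.454 and 0.329 in control dogs 1, 3, 4 and 9 and 0.330, 0.416, 0.573, 0.316 and 0.306 in ad libitum dogs 2, 5, 6, 7 and 8. Dog 6 had the widest difference between its depots, and dogs 7 and 8 the narrowest.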

How the data were processed

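Gene expression was measured on 18 Affymetrix canine arrays. Per the labels' protocols, total RNA was extracted with Trizol and labelled as biotin cRNA by a one-cycle protocol. The deposited values were computed with GCRMA, per the submitters' processing notes. Its version is not given in the sources used here, nor is the base of the logarithm, and the deposited values were read as log2 from their range of 0.681 to 16.51 and array medians of 3.655 to 3.871. Values below log2 4 were taken as below the floor.

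The files hold 43035 probe sets, among them 111 controls. By the platform's annotation 29254 of the remaining 42924 have 1 gene symbol, 439 have several and 13231 have none. The 21484 probe sets with log2 of at least 4 in at least 4 of 18 arrays were tested. The 9 paired differences were fitted with limma 3.58.1 in R 4.3.3, where statmod 1.5.0 served the random block, with 7 residual degrees of freedom and 2.66 from moderation. Tests were two-sided with Benjamini-Hochberg adjustment over all probe sets and a threshold of 0.05. For each of 8656 genes the brightest probe set was kept. On simulated data the estimates lay on average near the planted differences. How often a difference of a given size would pass the threshold with 9 dogs is not reported here.

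The pairing comes from the animal number in the labels. The correlation of the deviations of both arrays of a dog from their group means ran from -0.0505 in dog 4 to 0.528 in dog 2. The p-values measure the spread between dogs, and the number of arrays limits the precision.

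Genes named were the 12 with the smallest unadjusted p in each direction among genes whose mean reached the floor in at least 3 of 4 groups, since fewer than 12 passed, then 3 members of each list by p and 2 by level, of which the text gives a selection made after the values were seen, and LEP, ADIPOQ and PPARG. The members, the 42 gene lists and the tests were chosen with earlier results of these data known. Alternatives were the filter, the floor, the scaling, the moderation, the block for the dog, a covariate from the actin control signal, and leaving out dogs. Leaving out dogs 2, 3, 4 and 6, leaving out the 4 arrays in question without the block, and the other actin 5′ probe set were chosen after seeing the data, as were the sizes of the feeding differences without dogs or arrays and the depot differences against the floor.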

Additional observations from a re-analysis of the deposited data

Results flagged for a closer look

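The depot differences of each named gene were checked for a dog far from the rest of its feeding group by Dixon's test. Of 190 groups of dogs 12 held such a dog, where chance gives about 1 in 20. Ad libitum dog 5 lay apart in 3 genes: MMD stood at -0.12 against -2.45 to -2.14 in the other ad libitum dogs, ACSL1 at 0.80 against -1.33 to -0.73, and CCL19 at -2.61 against -0.56 to 0.14. Ad libitum dog 6 lay apart in GLRX2, at -0.80 against -0.45 to -0.38. The same dog stood at 1.88 in CCND2, against 0.26 to 0.72 in the others. It also stood at -1.76 in MGLL against -0.22 to 0.37, and at -2.64 in PCK1 against -0.68 to 0.11. Among control dogs, dog 4 lay at 1.37 in CDO1, against 0.52 to 0.58 in the others, and at -0.80 in CLK2, against -0.42 to -0.37. Dog 9 lay at -1.48 in DPP4, where the others ranged over -5.82 to -5.38. NT5E stood at 2.99 in dog 1 and -0.37 to -0.046 in the rest. PDHA1 stood at 0.14 in dog 3 and 0.65 to 0.75 in the rest. Dogs 4 and 6 are those with an array that carried transcripts of ciliated cells, and the part of this in their values was not tested.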

How the results depend on the processing

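The count of probe sets past the adjusted threshold was 0 under every alternative run, with a smallest adjusted p of 0.0594 without dog 5. At an unadjusted p under 0.05 the counts of 825 positive and 1329 negative probe sets moved by over 1.5 times in several. Without the replicate block they were 462 and 882, and with the dog as a random replicate block 742 and 1261. With the actin covariate the negative count was 672, and with the other actin 5′ probe set in it 323 were positive and 418 negative. The negative count was 595 without dogs 3 and 4, 848 without dogs 4 and 6, 736 without dogs 3, 4 and 6 and 464 without dogs 2, 3, 4 and 6. Without the block and the 4 arrays the counts were 455 and 454. Leaving out 1 dog gave 524 to 1087 positive and 737 to 2048 negative. The actin difference between the groups was 1.21 to 2.20 with 1 dog left out, 0.70 with the other 5′ probe set and 0.097 for GAPDH, on the same side of the threshold each time. Many of the named genes were taken by their p on these same dogs, so the signs they keep are no further test. Over 93 named genes and 25 settings 2301 values kept their sign and 13 did not. These were PPARG and ADIPOQ with the actin covariate at 0.37 and 0.21, with the other probe set at 0.15 and 0.10, without dogs 4 and 6 at 0.095 and 0.047, without dogs 3, 4 and 6 at 0.11 and 0.058, without dogs 2, 3, 4 and 6 at 0.28 and 0.13, and without the block and the 4 arrays at 0.32 and 0.20, and INSIG1 with the actin covariate at 0.11. The cause was not tested. All 24 leading genes kept their sign under every alternative they entered, on arrays that also chose them. An unadjusted p under 0.05 was kept by 21 of them without dogs 2, 3, 4 and 6, and by 17 without the block and the 4 arrays. The 9 dogs and signals near the floor limit what can be seen.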

Other observations

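Of the 20 probe sets with the smallest p for the interaction 8 carry no single gene symbol, so part of what lay farthest apart is not named here. S100B, a calcium-binding protein made by glia and by adipocytes, had depot differences of 1.59, -0.55, 1.78 and 0.74 in control dogs and -1.23, 1.02, -1.66, -1.40 and -0.89 in ad libitum dogs, an interaction of -1.72 ± 0.63 (adjusted p = 0.460) with 3 of 3 probe sets at an unadjusted p under 0.05. LOX, lysyl oxidase, which joins collagen fibres, differed between the feeding groups by 3.29 in subcutaneous and 1.07 in gonadal fat, an interaction of -2.22 ± 1.02. ANKRD37, a gene induced by low oxygen, had 1.26 ± 0.47. Ribosomal protein genes were positive in 18 of 22 with 0 at an unadjusted p under 0.05 and a median of 0.12, and with the actin covariate in 8 of 22 with a median of -0.024. Of 17 developmental transcription factors measured 8 were positive, with a median of -0.041 (-0.54 with the actin covariate, 2 positive), although the medians of their depot difference were 0.78 in control and 0.96 in ad libitum dogs.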
